A study of Homo sapiens with 2 samples.

Results

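The PRAM1 and MYO1F locus is a stretch of the short arm of human chromosome 19, in band 19p13.2, that holds the strongest antibody peak in a CUT&Tag map of PML-RARA in NB4 cells. Its members were chosen by position as every listed peak that overlaps chr19:8500000-8680000 on the build hg19, which gave 25 of the 20085 peaks in the deposited list. The stretch of 180.0 kb was set around the listed peak of highest total signal, so the values that chose it are given below as a description and carry no test. NB4 is an acute promyelocytic leukemia cell line that carries PML-RARA, a fusion of the nuclear body protein PML with the retinoic acid receptor alpha. The cells were grown in serum with no stated treatment, and an antibody labelled as directed at PML-RARA was used in 2 replicates of 1 group; the labels do not say whether these came from separate cultures or which part of the fusion the antibody binds. In CUT&Tag a transposase tethered to the antibody cuts and tags the DNA next to the bound protein. A control antibody or untreated arm was not analysed here, both replicates stand merged in 1 peak list with no value per replicate, and the sequencing depth is unknown, so no spread between replicates and no interval can be given. The list holds peaks and no expression values, so the cell type was not checked against marker genes.

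PML-RARA binds DNA through the RARA part, which recognises repeats of a short hexamer together with the retinoid X receptor, and it is known to recruit co-repressors and to hold promyelocytes short of maturation. In promyelocytic leukemia cells its sites are known to lie often beside those of PU.1, a myeloid factor of the ETS family. PRAM1 takes its name from this biology: it encodes an adaptor protein of granulocytes that was described as a gene repressed by PML-RARA and raised by retinoic acid. MYO1F encodes a class I unconventional myosin of immune cells, with a known part in neutrophil movement. Among the neighbours, HNRNPM encodes a nuclear RNA-binding protein that takes part in splicing, ZNF414 encodes a zinc finger protein, and ADAMTS10 encodes a secreted metalloprotease of the extracellular matrix. HNRNPM lies on the plus strand and the other 4 genes on the minus strand, in the order HNRNPM, PRAM1, ZNF414, MYO1F and ADAMTS10. The RefSeq gene table, on another build and used here for order and names, lists no other protein-coding gene between them.

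The bases before the start sites of MYO1F, ZNF414 and HNRNPM are shown because antibody peaks cover all of them and each holds the core hexamer of retinoic acid receptors. Of the 5 genes, 4 matched an entry of the RefSeq promoter table (GRCh38.p14) and PRAM1 did not. The 250 bases that end just before the start are printed 5′ to 3′ on the strand of the gene, and capitals mark AGGTCA or GGGTCA on either strand. The MYO1F sequence is chr19:8577443-8577692 on the minus strand, the ZNF414 sequence is chr19:8514168-8514417 on the minus strand, and the HNRNPM sequence is chr19:8444725-8444974 on the plus strand. These 3 positions are on GRCh38.p14, whereas all peaks and gene bodies are on hg19.
MYO1F: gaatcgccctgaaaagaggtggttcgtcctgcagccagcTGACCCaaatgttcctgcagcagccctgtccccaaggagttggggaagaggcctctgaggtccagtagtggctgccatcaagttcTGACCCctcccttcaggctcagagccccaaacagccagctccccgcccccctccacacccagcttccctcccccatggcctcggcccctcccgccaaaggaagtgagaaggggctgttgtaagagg
ZNF414: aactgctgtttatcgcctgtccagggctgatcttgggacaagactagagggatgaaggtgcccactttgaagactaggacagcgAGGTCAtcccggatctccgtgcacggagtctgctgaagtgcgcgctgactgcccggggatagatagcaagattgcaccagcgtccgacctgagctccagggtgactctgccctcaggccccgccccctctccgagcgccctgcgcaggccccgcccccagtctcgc
HNRNPM: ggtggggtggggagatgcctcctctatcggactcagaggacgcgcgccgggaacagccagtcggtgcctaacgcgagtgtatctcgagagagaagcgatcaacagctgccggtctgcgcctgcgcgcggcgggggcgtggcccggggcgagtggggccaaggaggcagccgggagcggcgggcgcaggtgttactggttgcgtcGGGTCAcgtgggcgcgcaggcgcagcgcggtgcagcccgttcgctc

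MYO1F held the hexamer at 2 places, both as GGGTCA on the strand opposite to the gene, at -211 to -206 and at -126 to -121 counted from the start. ZNF414 held 1 AGGTCA at -166 to -161, and HNRNPM held 1 GGGTCA at -46 to -41. ADAMTS10 held none. Among all 35116 entries of the table, 22.4% hold at least 1 such hexamer in the same 250 bases and 3.35% hold 2 or more, so a single match is common. A direct repeat of the hexamer with 1 to 5 bases between was in none of the 4 and in 0.162% of all entries. The looser hexamer AGTTCA was in none of the 4 either, against 8.80% of all entries. The bare ETS core GGAA, which PU.1 also binds, was found 4 times before MYO1F, 4 times before ADAMTS10, once before HNRNPM and not before ZNF414; 92.7% of all entries hold it, with a median of 3. The longer form GAGGAA, often seen at PU.1 sites, was not found in the 250 bases of any of the 4, against 23.6% of all entries. When the first 50 bases of the gene are added, MYO1F holds 1 GAGGAA, and 27.9% of all entries hold at least 1. The still longer form GAGGAAGT was in none of the 4 even then, against 2.59% of all entries. Forms 1 base away, such as AAGGAAGT before MYO1F and CAGGAAGT before ADAMTS10, were not searched over all entries. The MYO1F sequence held 5 CG dinucleotides against a median of 11 over all entries, while those of HNRNPM, ADAMTS10 and ZNF414 held 33, 32 and 16. The letters GGGCGG, bound by SP factors, were found at 5 places before ADAMTS10, 2 before ZNF414, 1 before MYO1F and none before HNRNPM, and 42.6% of all entries hold at least 1. The letters TTGCNNAA (C/EBP), TGTGGT (RUNX) and TGANTCA (AP-1), of myeloid and stress-responsive factors, were in none of the 4, against 9.05%, 10.98% and 6.57% of all entries. A match is a description of letters and no evidence of binding.

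The strongest single peak of the locus lay over PRAM1 and held 40.8% of the summed signal. The peak at chr19:8553961-8574679 covered the whole of PRAM1 (8554.9 to 8567.5 kb) and reached 7.18 kb upstream of its start and to the last bases of HNRNPM on the other side. It had a total signal of 876984, a maximum of 830 and a mean of 42.3 per base. Total signal is the coverage summed over the bases of a peak and maximum is its highest point, both as the authors' peak caller gave them. By total signal and by length (20718 bp) this peak ranked 1 of 20085, and its total was 1.59 times that of the next peak of the list and 135 times the list median of 6479. By maximum it ranked 2, behind a peak with 1005 on an unplaced contig, and by mean per base it ranked 124.

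The signal within the PRAM1 peak was uneven. Its maximum was 19.6 times its mean, the highest such ratio in the list, where the median was 2.90 and the interquartile range 2.45 to 3.56. A total of 876984 would be used up by 1057 bp at the maximum, so at most 5.10% of its bases can lie at that height. The ratio and this bound assume that total and maximum come from the same coverage track, and the way of merging was not given. The list does not say where in these 20718 bp the summit lies, so it was not placed at the start site, in the gene body or upstream.

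A second tall peak stood on the other side of PRAM1, over the last part of HNRNPM. It lay at chr19:8549738-8553836, entirely inside the HNRNPM gene body (8509.8 to 8554.0 kb), and 125 bp separated it from the PRAM1 peak. Its total was 307911 and its maximum 773, which ranked 15 and 3 in the list. Its mean of 75.1 per base was the highest of the locus and ranked 11 in the list. It ended close to the 3′ end of HNRNPM, 13664 bp downstream of the PRAM1 start site. Measured by maximum, this peak and the PRAM1 peak were the highest on the assembled chromosomes.

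The third peak of the group covered ZNF414. It lay at chr19:8575201-8585121, 522 bp upstream of the PRAM1 peak, covered the whole ZNF414 body (8575.5 to 8579.0 kb) and reached 6.12 kb upstream of the ZNF414 start. Its total was 325007, its maximum 391 and its mean 32.8 per base, with ranks of 12, 26 and 310. It stopped short of the 3′ end of MYO1F at 8585.7 kb. These 3 peaks spanned 35.4 kb, of which 34.7 kb lay inside peaks, and together they held 70.2% of the summed signal of the locus. The gaps between these 3 peaks were 125 and 522 bp. Over all peaks of the locus, gaps of at most 1 kb made up 11 of the 24 (45.8%), against 14.6% of the 20049 in the list.

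**Figure D1:**
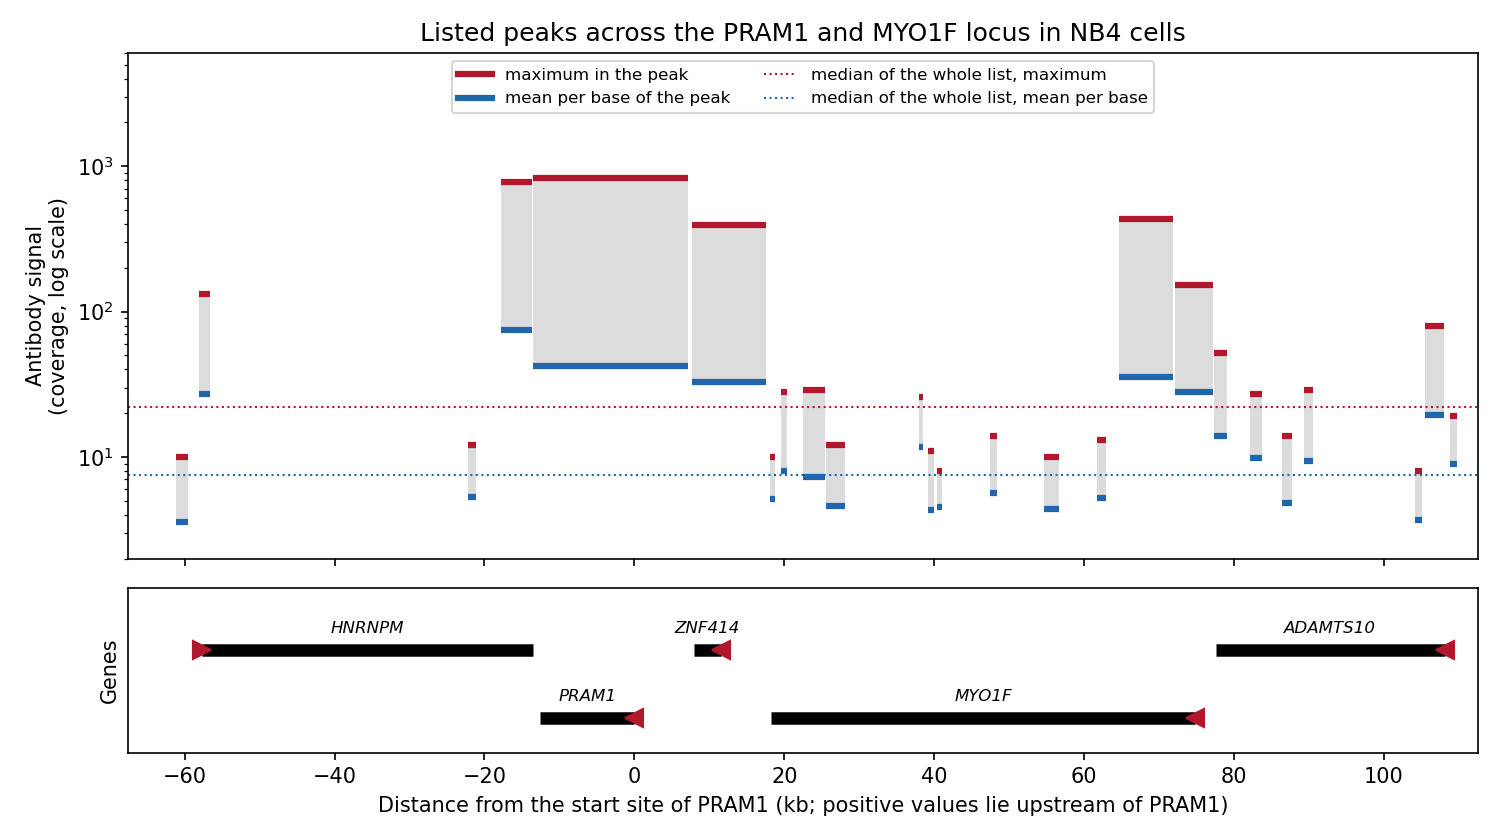
Listed peaks by distance in kb from the PRAM1 start site, with red lines for the maximum and blue lines for the mean per base of each peak (log axis), dotted lines for the list medians of 22 and 7.53, and gene bodies below with red arrowheads at their start sites. The peaks over PRAM1, the end of HNRNPM and ZNF414 stand at 391 to 830 by maximum, the peak pair at the MYO1F start at 152 and 432, and most peaks in between at or below the list median.

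MYO1F had most of its signal in the first part of the gene, at and just inside the start. The peak at chr19:8639669-8644658 covered its start site (8642.3 kb), with 2.36 kb upstream and 2.63 kb downstream, a total of 138988 and a maximum of 152. The stronger peak lay just inside the gene, at chr19:8632150-8639403, with a total of 258891, a maximum of 432 and a mean of 35.7 per base. By total these peaks ranked 134 and 30 in the list, and a gap of 266 bp parted them. Their summed signal was 18.5% of that of the locus. The maximum of the peak inside the gene was higher than that of the peak over the start, and its summit cannot be placed more closely than the peak itself.

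Along the rest of MYO1F, 10 peaks lay over 44.8 kb and held 3.50% of the locus signal. Their totals ran from 2684 to 20526 with a median of 6167, and their maxima from 8 to 29 with a median of 12.5. Over the list, 9909 of 20085 peaks had a maximum below the median of 22. Of these 10 peaks, which leave out the stronger pair at and just inside the start, 7 did. The lowest total of the locus was among them, at chr19:8607922-8608511, as was a peak of 2834 bp at chr19:8590066-8592900 that was long but low, with a maximum of 29. Over the first 14.2 kb of the MYO1F body, 77.8% of bases lay in peaks and 83.1% of the signal of the gene was found there. The following 2 stretches of the same length had 20.6% and 14.3% of bases in peaks, and the last one, toward ZNF414, had 47.2% with 10.1% of the signal.

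HNRNPM carried a weaker peak at its start site. HNRNPM had a peak over its start at chr19:8509360-8510848 with a total of 40225, a maximum of 131 and a rank of 1298, and the next 34.5 kb of its body had no listed peak. Within its body, 91.8% of the signal fell in the 11.1 kb at the 3′ end, next to PRAM1. A low peak at chr19:8545334-8546385 (total 5548, maximum 12) stood before the tall one, and another at chr19:8506395-8507908 (total 5403, maximum 10) lay upstream of the gene.

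At ADAMTS10 the start site fell between peaks. A peak of total 49288 and maximum 79 at chr19:8672985-8675510 ended 90 bp inside the gene, and the next, at chr19:8676374-8677289, had a total of 8163 and a maximum of 19. None of the 250 bp before the ADAMTS10 start lay in a peak, whereas all 250 bp did at HNRNPM, PRAM1, ZNF414 and MYO1F. Gene bodies are known to 0.1 kb here, so a start site may be off by 50 bp. Along the rest of ADAMTS10, 5 peaks had totals of 3692 to 22934 and maxima of 8 to 52. The strongest of them, at chr19:8644885-8646532, lay over the 3′ end of ADAMTS10, 227 bp from the peak at the MYO1F start. The next in strength, at chr19:8649663-8651305, had a total of 16077 and a maximum of 27, and the weakest, at chr19:8671657-8672657, had 3692 and 8. A stretch of 13.6 kb inside the gene had no listed peak.

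All 5 genes had a peak within 2 kb of the start site, but their levels were far apart. The share of all genes with such a peak could not be computed without an hg19 annotation. The count therefore describes a stretch chosen for its signal and does not set these genes apart from others. In the order of total signal, the strongest peak in that window had 876984 at PRAM1, 325007 at ZNF414, 138988 at MYO1F, 49288 at ADAMTS10 and 40225 at HNRNPM. By maximum the order was 830, 391, 152, 79 and 131, so that HNRNPM stood above ADAMTS10. With no value per replicate, it is not known which neighbours in these orders differ beyond replicate spread. Peaks covered the whole 2 kb on either side of the start at PRAM1, ZNF414 and MYO1F. At ADAMTS10 they covered 45.8% upstream and 95.5% downstream, and at HNRNPM 27.4% upstream and 52.4% downstream.

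**Figure D2:**
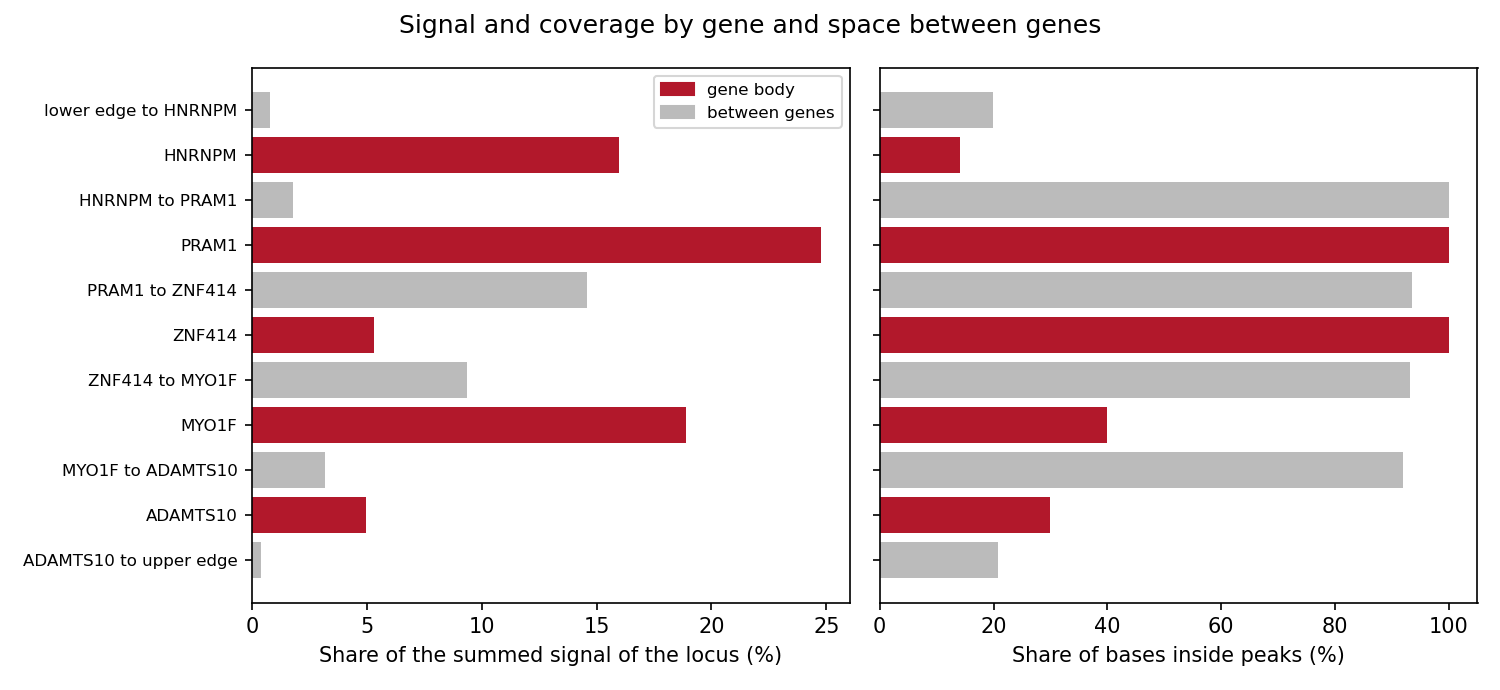
Share of the summed signal of the locus (left, %) and share of bases inside peaks (right, %) for each gene body (red) and each space between genes (grey), with the signal of a peak spread evenly over its bases. PRAM1 holds 24.8% of the signal and lies wholly inside a peak, as ZNF414 does, while HNRNPM has 14.1% of its bases in peaks and ADAMTS10 29.9%.

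Divided among the genes by overlap, 24.8% of the locus signal lay over PRAM1, 18.9% over MYO1F, 15.96% over HNRNPM, 5.33% over ZNF414 and 4.95% over ADAMTS10. The spaces between genes took 30.1% on 32.6 kb. Per kb of gene body the signal was 42330 over PRAM1, 32763 over ZNF414, 7770 over HNRNPM, 7187 over MYO1F and 3495 over ADAMTS10. PRAM1 thus had 5.89 times the signal per kb of MYO1F and 12.1 times that of ADAMTS10. These shares rest on the signal of a peak being spread evenly along it. If total and maximum come from the same coverage track, the high ratio of maximum to mean shows it is not. With each peak given whole to the feature at its midpoint, PRAM1 took 40.8%, MYO1F 22.0%, HNRNPM 16.4% and ADAMTS10 5.09%. Under that rule ZNF414 took none, since the midpoint of the peak that covers it lies upstream of the gene, and the spaces between genes took 15.7%. A peak over PRAM1 is assigned to it by position, and no link between a peak and the activity of a gene was measured.

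Within the locus, peaks fell into a few long and tall ones and many low ones. The 5 strongest had totals of 138988 to 876984 and held 88.7% of the summed signal, while the other 20 had totals of 2684 to 49288 with a median of 6867, close to the list median of 6479. Their median maximum was 14, below the list median of 22, and 12 of the 20 lay under that median. These 20 are what remained after the 5 strongest were set aside. Over all 25 peaks the count was also 12, a similar share to the 9909 of 20085 in the list. Counting all 25 peaks, 7 were in the top 10% of the list by total signal and 5 in the top 1%. By construction the shares over all listed peaks are 10.0% and 1.00%, and the locus was chosen for this signal. A maximum at or above the upper quartile of the list (38) was found in 8 of the 25, where 25.4% of all listed peaks have one. Longer peaks were also taller: Spearman's rho between length and maximum was 0.680 over the 25 peaks and 0.470 over the list, a description of peaks that share libraries and, in the locus, neighbouring DNA.

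**Figure D3:**
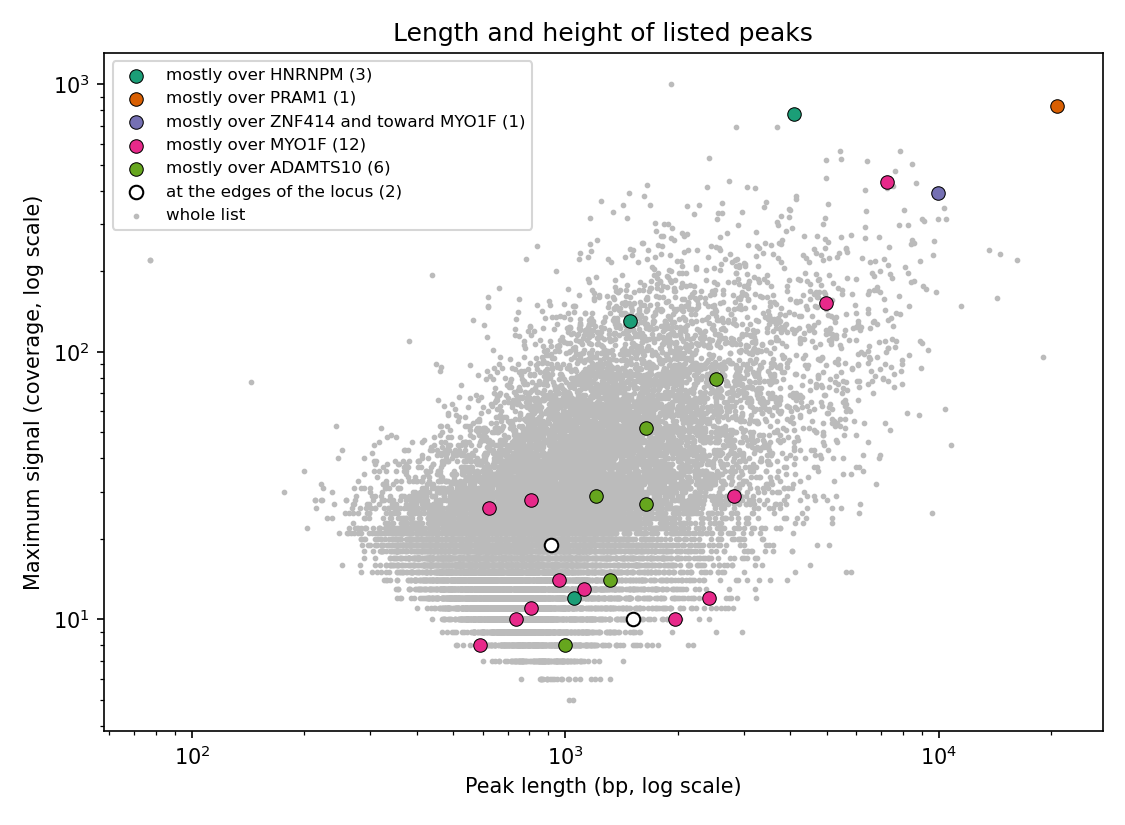
Length in bp against maximum signal (both axes log) for the 25 peaks of the locus and for the whole list in grey. Locus peaks are coloured by the gene or space between genes that they cover most, with peaks at the edges of the locus in white. The PRAM1 peak lies alone at the far right at 20718 bp and 830, the ZNF414 peak and 1 MYO1F peak lie at 9920 and 7253 bp, and the low peaks of the locus lie inside the grey cloud.

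Seen against windows of the same length, the locus had the most signal but not the most peaks. Of 16871 windows tiled in step with it over the chromosomes, 5257 held a peak, with a median of 2 peaks, 2.04 kb inside peaks and a summed signal of 19351. The locus had a summed signal of 2151931, or 0.774% of the list, and ranked 1, at 1.67 times the next window. It had 74.1 kb (41.2%) inside peaks, which ranked 3, and 25 peaks, which ranked 19. Since the locus was chosen for its signal, its rank is a description.

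**Figure D4:**
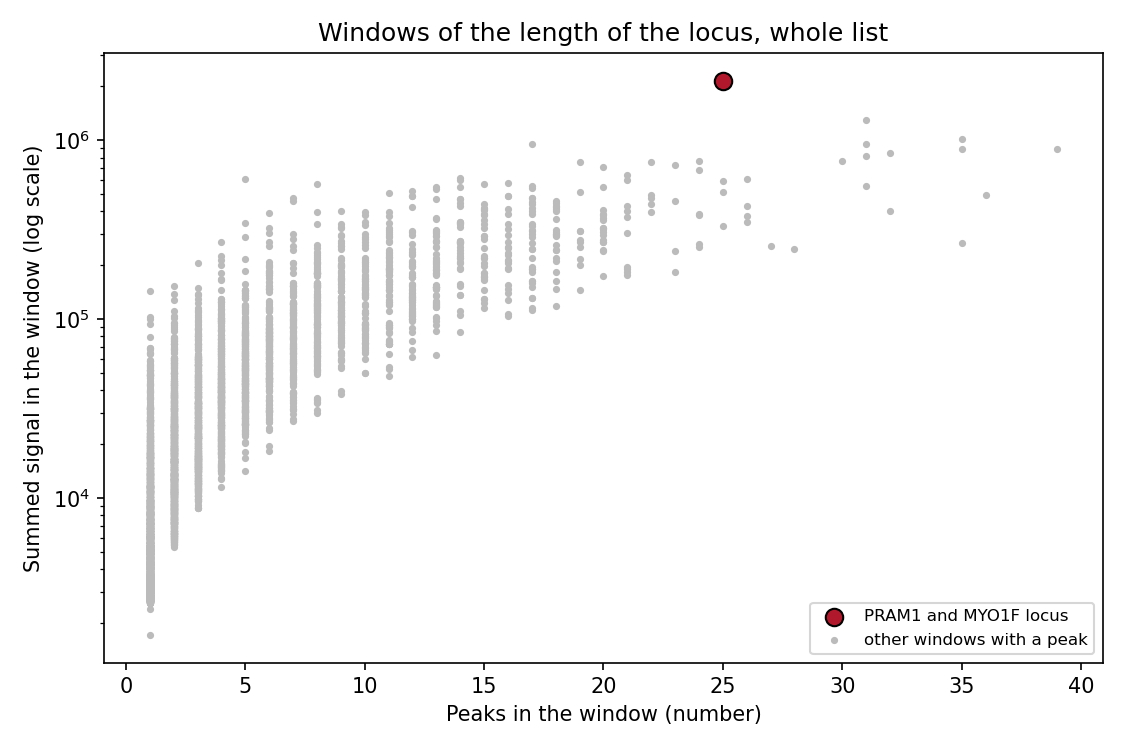
Number of peaks against summed signal (log axis) for every window with a peak, each as long as the locus, with the locus in red and other windows in grey. The locus stands highest at 2151931 with 25 peaks, while windows with 31 or 35 peaks lie at about 1291153 or less.

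The run of peaks with the largest number of members in the list, also on chromosome 19 at chr19:10360818-10547377, gives a contrast of shape. In the locus 25 peaks summed to 2151931, and in that run 39 peaks summed to 1704921. The units differ: the locus is a window of 180.0 kb, and the run is joined over gaps of at most 10 kb. Joined by the same rule, the run around PRAM1 held 20 peaks over 112.8 kb and summed to 2045160. The strongest 3 peaks held 70.2% of the signal in the locus and 43.4% in the run. Maxima reached 830 in the locus and 264 in the run, with the same median of 26 in both. Signal per covered base was 29.0 in the locus, 16.3 in the run, 12.9 on chromosome 19 outside the locus and 11.7 over the list. No test was made of these differences, since both stretches were picked for their signal or their peaks.

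Joined over gaps of at most 1 kb, the 25 peaks formed 14 blocks. The block around PRAM1 ran from 8549738 to 8587869, a length of 38.1 kb from the last part of HNRNPM to the 3′ end of MYO1F, with a total of 1520171. It was the longest and had the highest total of 17149 blocks in the list. The block at the MYO1F start ran from 8632150 to 8646532 (14.4 kb, total 420813) and ranked 9 by total and 44 by length. Low and scattered peaks lay between these blocks.

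The edges of the locus cut through no peak. The first peak inside the lower edge lay 6395 bp from it and had a total of 5403, and the nearest outside lay 8406 bp below, with a total of 3557 and a maximum of 16. The last peak inside the upper edge lay 2711 bp from it with a total of 8163, and the next outside lay 5268 bp above with a total of 3324 and a maximum of 15. After that peak came a stretch with no listed peak up to 8746395.

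Genes related to the pair could not be given peak values without an hg19 annotation, so their promoters alone were read. Those with an entry were 11 genes, namely partners and relatives of PRAM1 among adaptors (FYB1, FYB2, SKAP2, LCP2 and HCLS1) and the class I myosins MYO1A, MYO1C, MYO1D, MYO1E, MYO1G and MYO1H. The hexamer AGGTCA or GGGTCA stood in the 250 bases before a start of 3 of them, HCLS1, MYO1C and MYO1G, against 26.4% of all 27305 genes with an entry. The core GAGGAA was found in 4 of the 11, SKAP2, LCP2, MYO1A and MYO1C, against 27.3% of all genes.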

How the data were processed

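CUT&Tag with a PML-RARA antibody was sequenced in paired-end mode on a MiSeq in 2 replicates of NB4 cells, per the labels' protocols. Trimmomatic, Bowtie2, SAMtools, bedtools, SEACR and the build hg19 are named in the submitters' processing notes. The threshold of SEACR, any control track, the way of merging and all versions were not given in the sources used here. As 1 merged list, the authors deposited a total signal and a maximum signal (coverage) per peak. The column headed width was read as total signal, since it exceeds the length in all 20085 rows and never exceeds length times maximum. No scaling to depth is stated.

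Lengths are the difference of the listed start and end. Positions are as in the list, whose starts may count from 0. Gene bodies on hg19 came with the definition of the locus, to 0.1 kb. Mean signal, ranks, overlaps, blocks (gaps of at most 1 kb), runs (gaps of at most 10 kb) and windows of 180.0 kb were computed with Python 3.11.15, pandas 2.3.3, numpy 2.4.6 and scipy 1.17.1, and overlap and motif functions were tested on simulated data. Windows ran to the last peak of each chromosome; peaks were counted in them by midpoint. Motifs were exact matches on both strands; other letters for C/EBP, KLF and TATA-box factors were searched and are not described. Listed related genes without an entry are not reported here.

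No test between samples was possible with 1 group and 1 merged list. Genes and peaks named are the 5 genes, the 10 strongest peaks, the strongest peak at each start site, the strongest and weakest peak in each gene body, and neighbours that a sentence needs, which were chosen after their values were seen. Members, lists and alternatives (thresholds on maximum, merging, midpoints, start-site windows) were chosen with earlier results of these data known.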

Additional observations from a re-analysis of the deposited data

How the results depend on the processing

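The locus ranked 1 by summed signal in 4 alternatives (both stricter thresholds, merged peaks and windows shifted by a part of their length), 3 by covered length and 19 by number of peaks. Rank 1 was largely fixed in advance, since the locus was chosen for its signal. Merging left its summed signal unchanged, and only the other windows were shifted while the locus stayed in place. All 5 genes had a peak within the start-site window when it was 1 or 5 kb, with at least 500 bp of overlap and with maxima at or above the upper quartile. No share over all genes was available for any of these settings. Requiring the list median of the maximum left 13 peaks, 59752 bp in peaks and a summed signal of 2081886; requiring the upper quartile left 8 peaks, 52638 bp and 2020228. Merging within 1 kb left 14 peaks over 78988 bp. The share over PRAM1 was 25.6%, 26.4% and 23.3% under these 3 settings, that over MYO1F 17.6%, 16.4% and 20.8%, and that of the longest peak 42.1%, 43.4% and 70.6%. Fewer or joined peaks account for these counts by construction. Given whole to the feature at its midpoint, peaks put 40.8% over PRAM1 and 22.0% over MYO1F and, in shares added after seeing the data, none over ZNF414 (5.33% by overlap) and 15.7% between genes (30.1% by overlap). Taking peaks by midpoint changed no value. Leaving out a replicate could not be run on a merged list. No paired analysis was possible because there is 1 group and no value per replicate. The depth is unknown, so it cannot be said how many low peaks a deeper library would add or join.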
